A study of Mus musculus with 24 samples.

Results

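In each of 4 genotype groups of mouse pharyngeal arches, the library of replicate 2 carried far more RNA of cranial sensory neurons than the libraries of replicates 1 and 3, and the genes described here are those that came with that difference. The comparison takes 12 of the 24 RNA-seq libraries of the series: replicate 2 (4 libraries, called neuron-rich) against replicates 1 and 3 (8 libraries, called neuron-poor). The 12 libraries were selected on the measured levels of neuron and glia genes in these same libraries, with Neurod1 and Nefl as markers, so the contrast between them is a description and carries no test. Tests were made only on the 12 libraries outside that selection, on the genotypes, and on whether the contrast differed between genotypes.

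All embryos were on a C57BL/6 background at the E10.5 stage, and the design text gives them as female. RNA came from tissue of the 1st and 2nd pharyngeal arches, the segmental swellings that build the jaws and the middle ear. The 4 groups are Kat6a_Homo_KO (both alleles of the histone acetyltransferase gene Kat6a knocked out, Dlx5 +/+), Kat6a_Het_KO (1 Kat6a allele knocked out, Dlx5 +/+), Dlx5_Het_KO (1 allele of the homeobox gene Dlx5 knocked out, Kat6a +/+) and WT (+/+ for both genes). Each has 3 libraries here, all of facility batch 2, the label for 1 of 2 mouse facilities. The other 12 libraries are replicate 4 of these groups and all 4 replicates each of Kat6a_Het_Dlx5_Het_KO (1 allele of each gene knocked out) and Dlx5_Homo_KO (both Dlx5 alleles knocked out). No source used here gives the type or extent of the alleles.

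The trigeminal, geniculate, petrosal and nodose ganglia lie at the roots of the arches and send axons into them. Their neurons arise from ectodermal placodes and from the neural crest, and their glia from the crest alone. Basic helix-loop-helix (bHLH) factors such as the neurogenins and Neurod1 start sensory neuron differentiation, and homeodomain factors such as Pou4f1 (Brn3a) then set sensory identity.

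Deposited gene counts summed to between 10.4 M and 28.2 M (M, 1e+06 counts) per library, the deepest being WT replicate 1. Levels below are CPM (counts per 1e+06 counts of the library) after TMM scaling. They are not corrected for gene length. Where genes are set side by side or called abundant, the order is therefore one of counts. Summed over the whole gene, Kat6a averaged 227 ± 14.6 CPM in Kat6a_Homo_KO and 201 ± 40.6 CPM in WT (SD, n = 4 each), and Dlx5 averaged 62.5 ± 5.11 CPM in Dlx5_Homo_KO and 69.3 ± 6.78 CPM in WT. Neither targeted gene was lower in its own homozygous group beyond the spread of these whole-gene counts, so group names below are the labels of the libraries. Xist, transcribed from the inactive X chromosome, stood at 7.54 CPM in the library labelled Kat6a_Het_KO replicate 3, against 963 to 2453 CPM in the other 23, while 4 Y-linked genes had 0 counts in it. In bulk tissue, fewer cells of a type and less RNA per cell cannot be told apart.

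Both markers were higher in replicate 2 than in replicates 1 and 3 in each of the 4 groups. Neurod1, a bHLH factor of differentiating neurons, reached 14.4 CPM in Kat6a_Homo_KO, 22.1 CPM in Kat6a_Het_KO, 15.5 CPM in Dlx5_Het_KO and 18.0 CPM in WT of replicate 2. In replicates 1 and 3 it ranged over 0.344 to 4.41 CPM with a median of 0.706 CPM. The sets did not overlap, and the highest neuron-poor library was Dlx5_Het_KO replicate 3.

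Nefl, the light chain of neurofilament, stood at 30.3 CPM in Kat6a_Homo_KO, 54.8 CPM in Kat6a_Het_KO, 43.5 CPM in Dlx5_Het_KO and 52.1 CPM in WT of replicate 2, against 1.56 to 10.7 CPM (median 1.89 CPM) in replicates 1 and 3. In a fit with genotype as a block, the log2 fold change of replicate 2 over replicates 1 and 3 was 4.01 (SE 0.39) for Nefl and 4.00 (SE 0.42) for Neurod1. Dlx5_Het_KO replicate 3 was again highest among the neuron-poor libraries. Without it the values were 4.47 for Nefl and 4.48 for Neurod1.

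**Figure D1:**
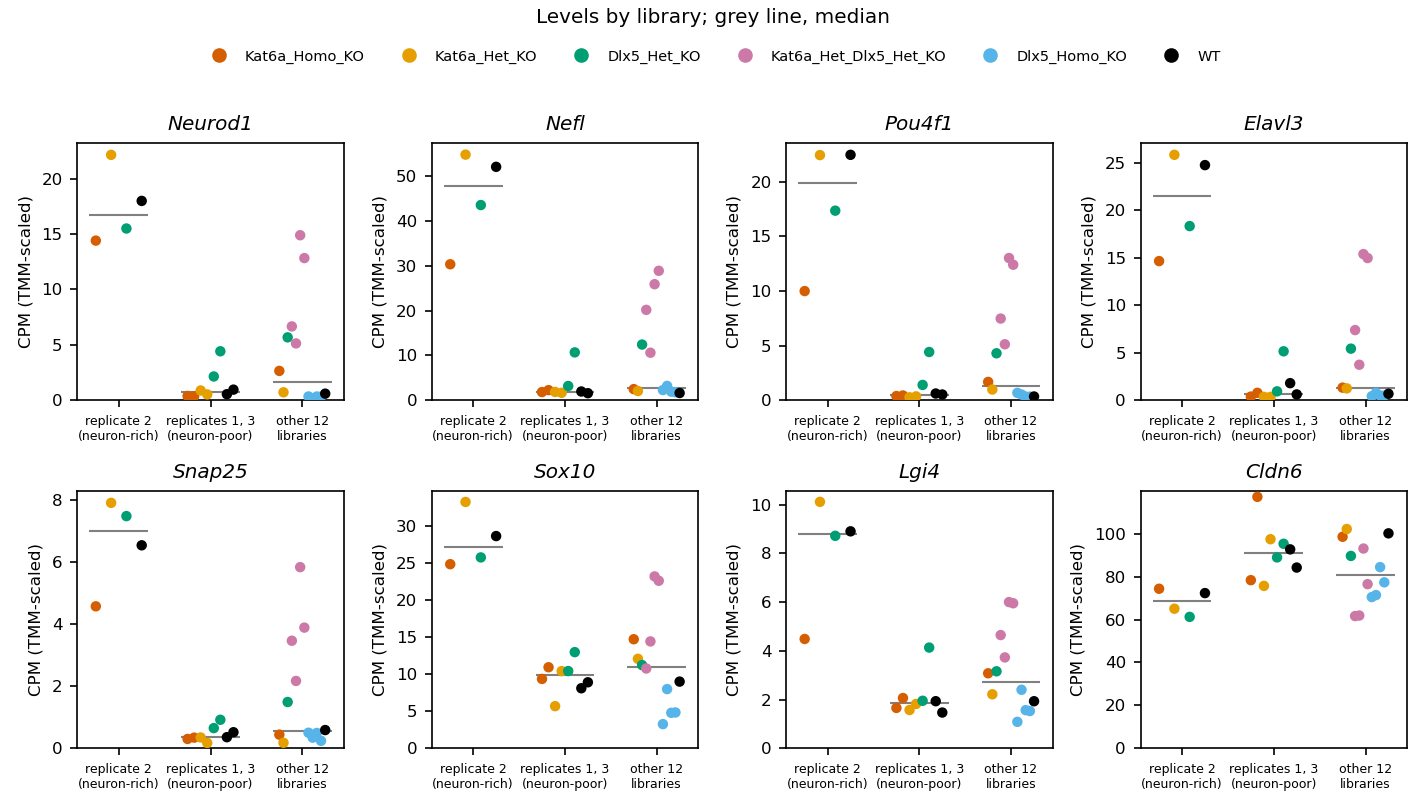
Each point is 1 library and the y axis gives TMM-scaled CPM of 8 genes, for replicate 2, for replicates 1 and 3, and for the other 12 libraries; colours give the genotype label and grey lines the medians. Nefl lay at 30.3 to 54.8 CPM in replicate 2 and at 1.56 to 10.7 CPM in replicates 1 and 3, while Cldn6, a gene of surface epithelium, lay at 61.3 to 74.4 CPM and 75.7 to 117 CPM.

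Of 14382 genes tested, 175 met the size rule upward, which asks for a log2 fold change of at least 1 with replicate 2 above both other replicates in all 4 groups. They are 1.22% of the genes. A gene could pass the filter on low counts through the 4 libraries of replicate 2 alone. Under a stricter filter 92 genes met the rule. The same rule downward was met by 6 genes, 0.0417%. Without the size limit, replicate 2 was above both other replicates in all 4 groups for 627 genes (4.36%) and below both for 521 genes (3.62%). Here "rose" means that a gene met the upward rule.

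The genes that rose were few in RNA but changed steeply. Of the 175, 52 were over 8-fold higher, 36 were 4-fold to 8-fold higher and 87 were 2-fold to 4-fold higher, and their median log2 fold change was 2.05 against -0.01 for all genes tested. They held 0.0915% to 0.169% of all counts in replicate 2 and 0.0221% to 0.0543% in replicates 1 and 3, where the library with the most was Dlx5_Het_KO replicate 3. Their median level over the 12 libraries was 1.64 CPM, against 27.8 CPM for all genes tested, and 106 of them averaged under 1 CPM in replicates 1 and 3. At the limit of the rule, the intermediate filament gene Synm (1.00), the potassium channel gene Kcnh1 (1.01) and Rundc3a (1.01) lay just inside. The axon initial segment gene Nfasc (1.00), the muscle growth regulator Mstn (0.99) and Spock2 (0.97) lay just outside, Nfasc because its value is 0.998 before rounding.

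Neuron genes were the bulk of the listed genes that rose. Of 151 genes on 10 lists of neuron genes, 121 were tested and 51 rose, a share of 42.1%. Both numbers can include genes that passed the filter on low counts only through replicate 2, where they were high. Over these 121 genes the median log2 fold change was 0.58. These lists, like the split itself, were drawn up with earlier results of the data known, so the share describes the libraries and supports nothing further. The list of crest-derived glia had 4 of 13 tested genes that rose.

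**Figure D2:**
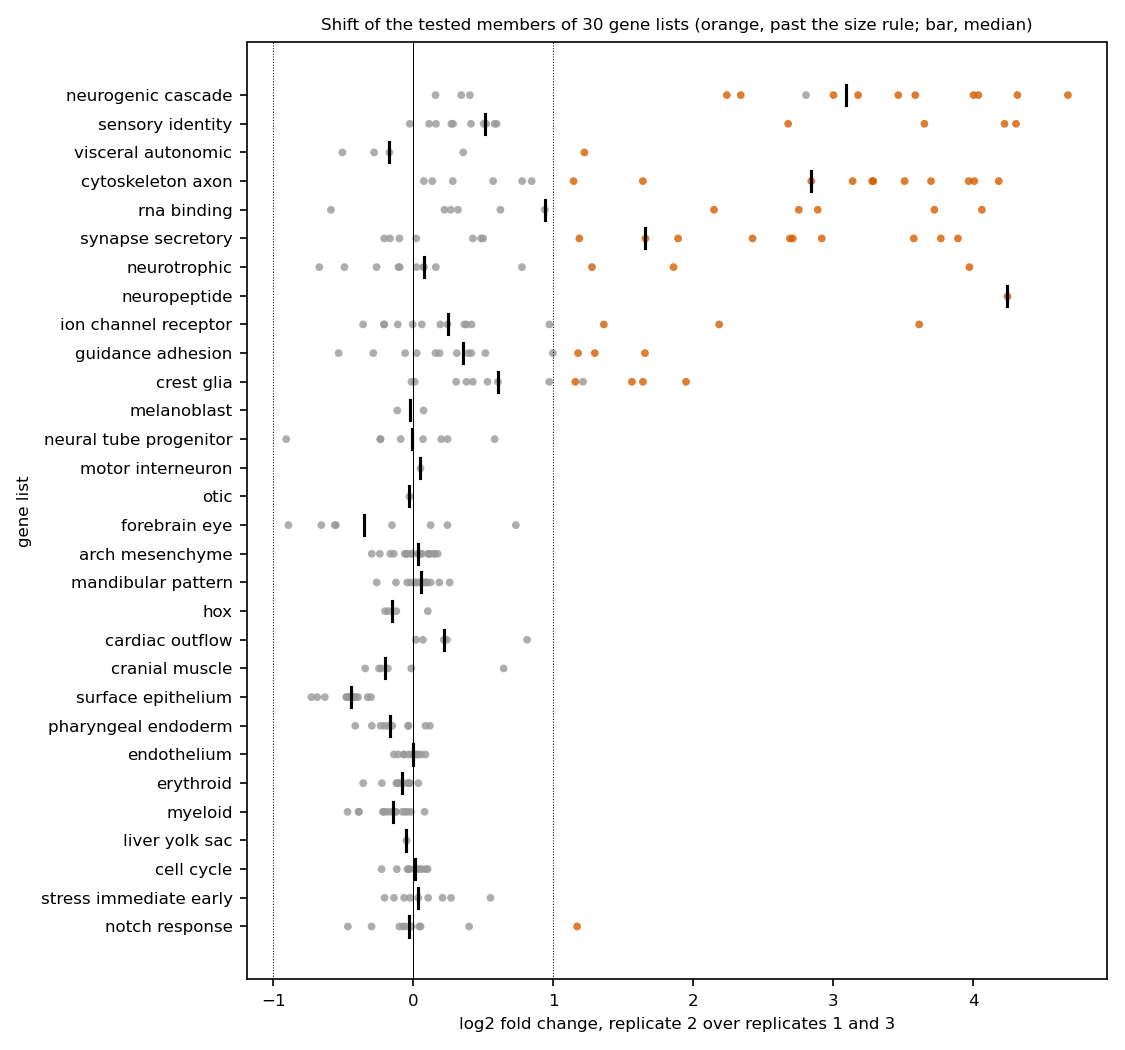
Each point is a tested gene of 1 of 30 lists and the x axis gives the log2 fold change of replicate 2 over replicates 1 and 3; orange points rose by the size rule, black bars are list medians and dotted lines mark -1 and 1. The medians of the neurogenic cascade (3.09) and of the axon cytoskeleton (2.84) lie farthest to the right among lists with more than 1 tested gene, and that of surface epithelium (-0.44) farthest to the left.

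Genes of the neurogenic cascade, which turn a progenitor into a neuron, had the largest median among lists with more than 1 tested gene. Of 14 tested genes 10 rose, and the list's median log2 fold change was 3.09. Nhlh1, a bHLH factor of newly formed neurons, stood at 8.72 CPM in Kat6a_Homo_KO, 17.7 CPM in Kat6a_Het_KO, 12.6 CPM in Dlx5_Het_KO and 13.7 CPM in WT of replicate 2, against 0.0717 to 2.57 CPM (median 0.217 CPM) in replicates 1 and 3. Its log2 fold change was 4.67 (SE 0.50) and the sets did not overlap.

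Myt1, a zinc finger factor that holds the neuronal state, was higher by 4.31 (SE 0.49) on the log2 scale, and Scrt2, a repressor of the Snail family, by 4.04 (SE 0.46). Myt1 ranged over 5.25 to 12.6 CPM in replicate 2 and over 0 to 2.21 CPM in replicates 1 and 3. Scrt2 was at 0 in 4 of the 8 neuron-poor libraries, and its 20 counts there in all leave the size of its fold poorly fixed. Neurog1, the neurogenin that specifies trigeminal and vestibuloacoustic neurons in the mouse, was higher by 3.18 (SE 0.30), with 2.80 to 7.36 CPM in replicate 2 and 0.0874 to 2.02 CPM in replicates 1 and 3.

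Not all of the list moved. Neurog2, the neurogenin of the epibranchial placodes, reached no more than 0.245 CPM in replicate 2 and 0.186 CPM in replicates 1 and 3, below the filter on low counts. Hes6 and Mfng, the most abundant of the list, differed by 0.16 (SE 0.13) and 0.40 (SE 0.11).

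The promoters of Neurod1 itself, of Nhlh1 and of Pou4f1 are shown because bHLH factors bind E-boxes, with the letters CANNTG, and these 3 genes are among the steepest that rose. The windows, from RefSeq on GRCm38.p6, run from 250 bases before to 50 bases after the annotated start, 5′ to 3′ on the gene's strand. They are chr2:79456587-79456886, minus strand for Neurod1, chr1:172057547-172057846, minus strand for Nhlh1, and chr14:104467950-104468249, minus strand for Pou4f1. Capitals mark every CANNTG.
Neurod1: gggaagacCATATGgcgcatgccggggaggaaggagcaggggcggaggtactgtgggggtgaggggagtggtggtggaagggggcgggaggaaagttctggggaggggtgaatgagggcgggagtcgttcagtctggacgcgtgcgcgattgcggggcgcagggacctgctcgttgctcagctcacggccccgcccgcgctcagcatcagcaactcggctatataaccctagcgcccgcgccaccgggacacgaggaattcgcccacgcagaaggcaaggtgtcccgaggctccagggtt
Nhlh1: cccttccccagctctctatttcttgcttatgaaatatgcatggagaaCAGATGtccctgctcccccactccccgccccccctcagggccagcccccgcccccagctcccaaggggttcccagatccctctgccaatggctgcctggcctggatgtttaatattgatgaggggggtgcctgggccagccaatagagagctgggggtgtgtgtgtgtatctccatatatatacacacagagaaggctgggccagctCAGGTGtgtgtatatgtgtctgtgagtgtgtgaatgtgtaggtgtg
Pou4f1: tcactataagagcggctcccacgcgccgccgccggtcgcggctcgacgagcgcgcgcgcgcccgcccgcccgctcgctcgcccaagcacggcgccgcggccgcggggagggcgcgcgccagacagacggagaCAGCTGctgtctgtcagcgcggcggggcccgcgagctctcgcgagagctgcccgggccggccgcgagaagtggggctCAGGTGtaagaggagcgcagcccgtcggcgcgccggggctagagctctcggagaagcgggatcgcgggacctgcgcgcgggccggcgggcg

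Neurod1 had 1 CANNTG in its window, Nhlh1 had 2, of which 1 was CAGATG, and Pou4f1 had 2, of which 1 was CAGCTG. RefSeq windows were found for 122 of the 175 genes that rose, 164 windows in all. CAGATG, searched on both strands, was in 21.3% of these 164 windows and in 11.6% of 13996 windows of all genes tested. CAGCTG, which reads the same on both strands, was in 21.3% and 15.4%, and CANNTG, which holds both of these motifs, in 72.0% and 63.9%. Such letters describe the windows and do not show binding, and Nefl and Sox10 had no window in the table used.

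Of the sensory identity genes, which set the type of sensory neuron, some rose steeply and others hardly differed. Of 14 tested genes 4 rose and the median log2 fold change was 0.51. Pou4f1, the POU-homeodomain factor of somatic sensory neurons, stood at 9.99 CPM in Kat6a_Homo_KO, 22.5 CPM in Kat6a_Het_KO, 17.4 CPM in Dlx5_Het_KO and 22.5 CPM in WT of replicate 2, against 0.262 to 4.41 CPM (median 0.474 CPM) in replicates 1 and 3. It was higher by 4.30 (SE 0.46) on the log2 scale, and the sets did not overlap.

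Tlx3, a homeobox factor of excitatory somatosensory neurons, was higher by 3.65 (SE 0.56), and without Dlx5_Het_KO replicate 3 by 4.95. Onecut1 and Onecut2, cut-homeodomain factors of early neurons, were higher by 4.22 (SE 0.46) and 2.68 (SE 0.19). Isl1, a LIM-homeodomain factor of sensory and motor neurons and of arch mesenchyme and epithelium, averaged 39.1 ± 4.54 CPM in replicate 2 and 29.3 ± 3.55 CPM in replicates 1 and 3 (SD, n = 4 and 8), and differed by 0.41 on the log2 scale. Ebf3, among the most abundant of the list, differed by 0.16 (SE 0.06), and Runx1 by -0.02 (SE 0.14).

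The visceral and autonomic list held genes near 0. Phox2a, a homeodomain factor of visceral neurons, reached at most 0.158 CPM in replicate 2 and 0.0874 CPM in replicates 1 and 3. Of 5 tested genes of the visceral and autonomic list only Chrna3, a nicotinic receptor subunit gene, rose, with a log2 fold change of 1.22 (SE 0.29). Th, tyrosine hydroxylase of catecholamine synthesis, was 3.87 to 4.40 CPM in replicate 2 and 4.78 to 7.89 CPM in replicates 1 and 3, with a log2 fold change of -0.51 (SE 0.14).

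Axon cytoskeleton genes, which build and stabilise the axon, had the second largest median among lists with several tested genes. Of 17 tested genes 11 rose, with a list median of 2.84. Tubb3, the neuronal beta-tubulin, averaged 106 ± 27.7 CPM in replicate 2 and 11.6 ± 6.90 CPM in replicates 1 and 3 (SD, n = 4 and 8), higher by 3.28 (SE 0.27) on the log2 scale. Stmn2, a microtubule regulator of growing axons, stood at 20.8 CPM in Kat6a_Homo_KO, 45.5 CPM in Kat6a_Het_KO, 29.0 CPM in Dlx5_Het_KO and 37.6 CPM in WT of replicate 2, against 1.36 to 11.4 CPM (median 1.68 CPM) in replicates 1 and 3. The highest of the neuron-poor libraries was again Dlx5_Het_KO replicate 3.

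Ina, the internexin filament subunit, was higher by 4.18 (SE 0.27), and Nefm, the medium neurofilament chain, by 3.51 (SE 0.39). Per length, the mean level of Nefl was 58.5 TPM, a count share corrected for gene length, in replicate 2 and 4.02 TPM in replicates 1 and 3, and that of Stmn2 was 45.4 TPM and 4.01 TPM. Map1b, a microtubule protein made in many cells, was 184 to 276 CPM in replicate 2 and 104 to 140 CPM in replicates 1 and 3. Its log2 fold change of 0.85 (SE 0.10) missed the size limit although the sets did not overlap, and Kif5c and Gap43 differed by 0.14 (SE 0.06) and 0.28 (SE 0.06).

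Neuronal RNA-binding proteins, which steer splicing and mRNA stability, had 5 of 11 tested genes that rose and a median of 0.94. Elavl3, a Hu protein of neurons, stood at 14.7 CPM in Kat6a_Homo_KO, 25.9 CPM in Kat6a_Het_KO, 18.3 CPM in Dlx5_Het_KO and 24.8 CPM in WT of replicate 2, against 0.347 to 5.15 CPM (median 0.690 CPM) in replicates 1 and 3. It was higher by 4.06 (SE 0.48), Srrm4, the splicing factor of neuronal microexons, by 3.72 (SE 0.42), and Elavl4 by 2.89 (SE 0.19). Elavl2, another Hu protein, ranged over 20.5 to 25.7 CPM in replicate 2 and over 10.3 to 15.3 CPM in replicates 1 and 3 and was higher by 0.94 (SE 0.09), under the size limit, and Nova1 by 0.22 (SE 0.10).

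Synapse and secretory granule genes had 10 of 17 tested genes that rose and a median of 1.66. Snap25, the SNARE protein of vesicle fusion, stood at 4.57 CPM in Kat6a_Homo_KO, 7.91 CPM in Kat6a_Het_KO, 7.48 CPM in Dlx5_Het_KO and 6.54 CPM in WT of replicate 2, against 0.173 to 0.919 CPM (median 0.354 CPM) in replicates 1 and 3. Its log2 fold change was 3.89 (SE 0.22). Scg3, a granin of dense-core granules, was higher by 3.77 (SE 0.65), Sncg, a synuclein of peripheral sensory neurons, by 2.71 (SE 0.34), and Slc17a6, the vesicular glutamate transporter, by 3.57 (SE 0.59). Vamp2 and Cplx2, also proteins of vesicle fusion but the most abundant of the list, differed by -0.10 (SE 0.08) and 0.02 (SE 0.06).

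Of the neurotrophic ligands and receptors, 3 of 13 tested genes rose, and the median was 0.07. Ntrk3, the receptor TrkC of proprioceptive and mechanosensory neurons, was higher by 1.86 (SE 0.30), and Gfra2, the neurturin co-receptor, by 1.28 (SE 0.15).

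Ntrk2 (TrkB) was 0.07 (SE 0.12) apart on the log2 scale, Ngfr (p75) 0.16 (SE 0.14), and the ligand gene Ntf3 -0.10 (SE 0.11). These 3 genes averaged 11.1 to 36.8 CPM in replicates 1 and 3, where Ntrk2 was lowest and Ngfr highest. Of 10 neuropeptide genes only somatostatin (Sst) passed the filter. It ranged over 5.08 to 16.1 CPM in replicate 2 and over 0 to 4.41 CPM in replicates 1 and 3, and was higher by 4.24 (SE 0.67).

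Among ion channels and receptors 3 of 15 tested genes rose, with a median of 0.25. Scn9a, the sodium channel Nav1.7 of nociceptors, was higher by 3.61 (SE 0.42), Scn3b, a sodium channel beta subunit, by 2.18 (SE 0.44), and P2rx3, the ATP-gated channel of sensory neurons, by 1.36 (SE 0.16). Piezo2, the mechanosensory channel, differed by -0.21 (SE 0.17). Of 14 tested guidance and adhesion genes 3 rose: Cntn1 by 1.65 (SE 0.22), Cntn2 by 1.30 (SE 0.24) and L1cam by 1.18 (SE 0.16), all adhesion proteins of axons. Robo1 and Robo2, the Slit receptors, differed by 0.03 (SE 0.05) and 0.19 (SE 0.09).

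Crest glia genes were higher too. Of 13 tested genes 4 rose, 7 were higher in all 4 groups, and the median was 0.61, beside 0.58 over the neuron lists, and the largest value of the list was 1.95. Sox10, the SRY-box factor of crest progenitors and glia, stood at 24.8 CPM in Kat6a_Homo_KO, 33.2 CPM in Kat6a_Het_KO, 25.7 CPM in Dlx5_Het_KO and 28.6 CPM in WT of replicate 2, against 5.68 to 13.0 CPM (median 9.88 CPM) in replicates 1 and 3. Its log2 fold change was 1.56 (SE 0.15) and the sets did not overlap.

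Lgi4, a protein secreted by Schwann cells for myelination, ranged over 4.49 to 10.1 CPM in replicate 2 and over 1.47 to 4.14 CPM in replicates 1 and 3, and was higher by 1.95 (SE 0.21). Fabp7, a fatty acid binding protein of immature glia, was higher by 1.64 (SE 0.24), with overlap of the sets, and Foxd3, a crest and glial precursor factor, by 1.16 (SE 0.30). Ednrb, the endothelin receptor of crest progenitors, was higher by 0.97 (SE 0.14), just under the limit. Erbb3, the neuregulin receptor of the Schwann lineage, differed by -0.01 (SE 0.17), and Ptprz1 by 0.01 (SE 0.14).

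**Figure D3:**
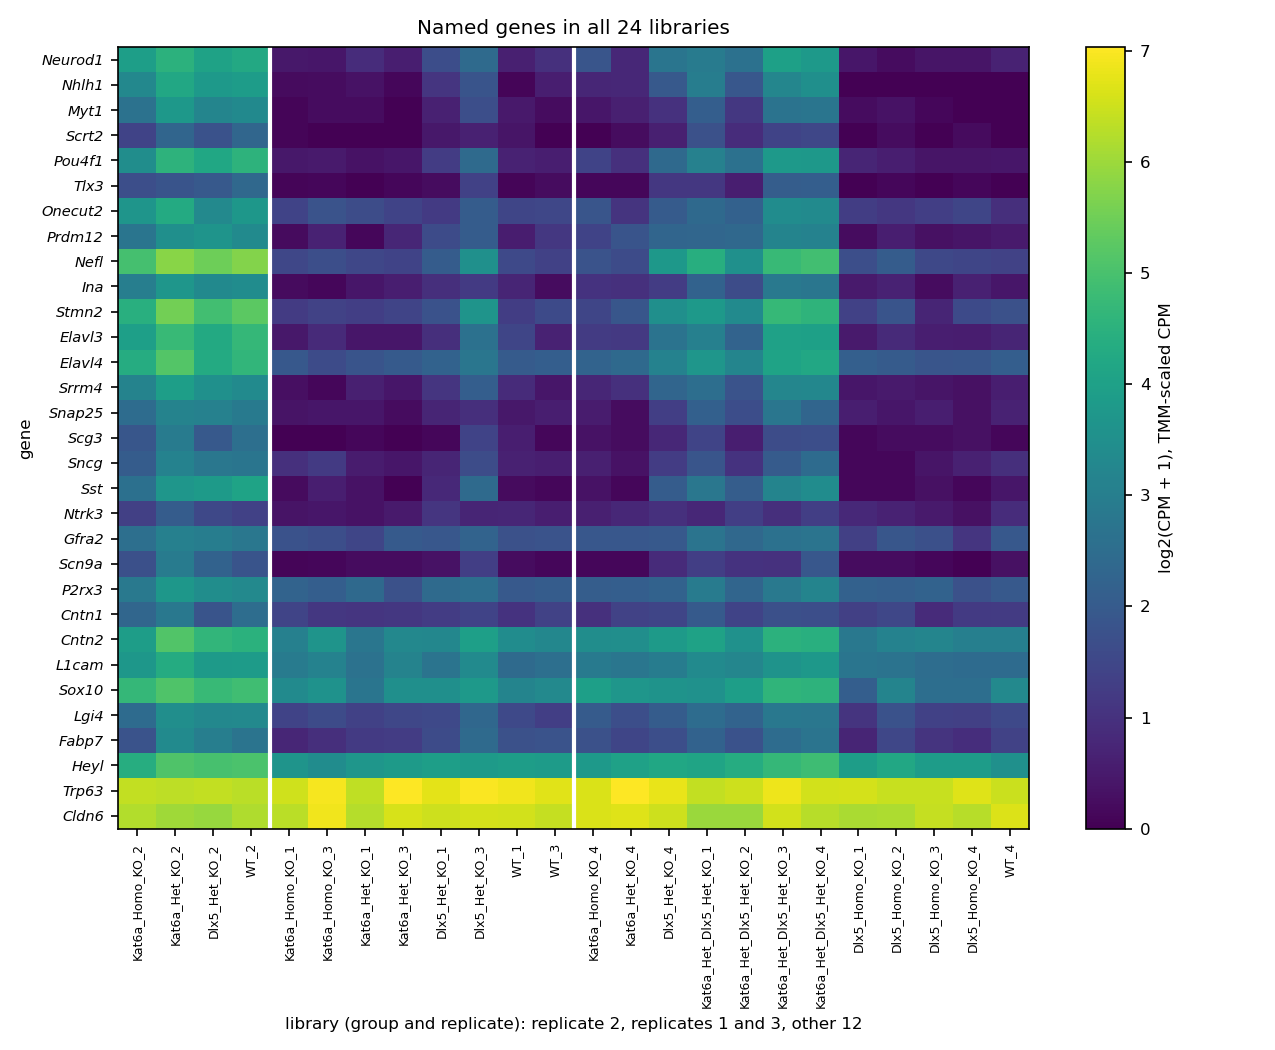
Colour gives log2(CPM + 1) of 31 named genes (rows) in all 24 libraries (columns), with white lines between replicate 2, replicates 1 and 3, and the other 12. The neuron genes are bright in the 4 libraries at the left and dark in the next 8, where Dlx5_Het_KO replicate 3 is the brightest, with Nefl at 10.7 CPM, and at the right they are brighter in Kat6a_Het_Dlx5_Het_KO than in Dlx5_Homo_KO.

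The 119 genes that rose outside the 30 lists included several of steep change. Grm2, a metabotropic glutamate receptor, was higher by 5.43 (SE 0.65), was at 0 in 6 of the 8 neuron-poor libraries and had 20 counts there in all, so the fold is poorly fixed. Ppp1r17, a phosphatase inhibitor subunit, stood at 9.06 CPM in Kat6a_Homo_KO, 16.5 CPM in Kat6a_Het_KO, 12.9 CPM in Dlx5_Het_KO and 13.7 CPM in WT of replicate 2, against 0 to 2.11 CPM (median 0.119 CPM) in replicates 1 and 3. Its log2 fold change was 4.92 (SE 0.54).

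Prdm12, a zinc finger factor that nociceptors need, was higher by 3.34 (SE 0.36), with means of 9.17 ± 2.50 CPM in replicate 2 and 1.05 ± 1.05 CPM in replicates 1 and 3 (SD, n = 4 and 8). Tlx2, a homeobox factor of crest-derived neurons, was higher by 3.91 (SE 0.56). Ppp1r1c (4.68), Xkr7 (4.04), Thsd7b (3.72), Gsg1l (3.58), Kcnmb2 (3.54), Cdhr1 (3.45), Akap6 (3.25) and Disp2 (3.18) complete the 12 largest, by log2 fold change, among such genes with at least 1 CPM on average and with predicted genes left out. Kcnmb2 is a subunit of calcium-activated potassium channels and Akap6 an anchor of protein kinase A.

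Genes of other tissues were measured alongside. The motor and interneuron list had 1 of 11 genes above the filter, and Chat, the acetylcholine-synthesis enzyme, and Mnx1, a motor neuron factor, were at 0 in all 4 libraries of replicate 2. The otic list had 1 of 10 genes above it, and Oc90, an otoconial protein, was at 0 in 3 of 4. Of 20 neural tube progenitor genes 8 were tested, none rose, and the median was -0.01. Of 17 forebrain and eye genes 8 were tested, none rose, and the median was -0.35. Of 7 melanoblast genes 2 were tested and none rose, with Mitf, the melanocyte regulator, at 0.07 (SE 0.20).

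The bulk tissue of the arches differed little. The medians were 0.04 for 19 arch mesenchyme genes, 0.06 for 14 genes of mandibular patterning, 0.00 for 12 endothelial genes, -0.08 for 12 erythroid genes and 0.01 for 13 cell cycle genes, with no gene past the size rule in either direction. The same held for the lists of Hox genes (median -0.15), cardiac outflow (0.22), cranial muscle (-0.20), pharyngeal endoderm (-0.16), myeloid cells (-0.15), liver and yolk sac (-0.05) and stress response (0.04). Prrx1, a homeobox factor of limb and facial mesenchyme, averaged 887 ± 36.3 CPM in replicate 2 and 784 ± 106 CPM in replicates 1 and 3 (SD, n = 4 and 8). In the Notch list Heyl, a Notch target gene of smooth muscle and ganglia, was the only one of 10 that rose, by 1.17 (SE 0.08), with 19.9 to 33.6 CPM in replicate 2 and 9.72 to 14.4 CPM in replicates 1 and 3.

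Surface epithelium genes were lower in replicate 2. All 14 tested genes had negative log2 fold changes, -0.73 to -0.30 with a median of -0.44, 7 of them were below both other replicates in all 4 groups, and none reached the size limit. Trp63, the p63 factor of stratified epithelia, stood at 83.9 CPM in Kat6a_Homo_KO, 80.6 CPM in Kat6a_Het_KO, 82.4 CPM in Dlx5_Het_KO and 78.9 CPM in WT of replicate 2, against 81.5 to 129 CPM (median 112 CPM) in replicates 1 and 3. The 2 sets of libraries overlapped in Trp63. For Cldn6, a tight junction claudin, they did not, with 61.3 to 74.4 CPM in replicate 2 and 75.7 to 117 CPM in replicates 1 and 3.

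Summed over the list, surface epithelium genes came to 470 to 553 CPM in replicate 2 and 524 to 831 CPM in replicates 1 and 3. Replicates 1 and 3 were not alike in this: in Kat6a_Homo_KO the sum was 553 CPM in replicate 2, 568 CPM in replicate 1 and 831 CPM in replicate 3, and in Kat6a_Het_KO it was 470 CPM, 524 CPM and 783 CPM. In Dlx5_Het_KO it was 503 CPM, 700 CPM and 810 CPM, and in WT 511 CPM, 676 CPM and 636 CPM, in the same order. In Kat6a_Homo_KO and Kat6a_Het_KO replicate 2 thus lay close to replicate 1 and far below replicate 3. In the other 12 libraries 0 of the 14 genes had a slope on the marker level past the threshold, and the median slope was -0.001. The part of epithelial content in the values of the neuron genes was not tested.

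The 6 genes that met the rule downward were Psors1c2 (-1.48), Paqr5 (-1.18), Map3k8 (-1.18), Frs3os (-1.12), Col8a1 (-1.12) and A230103J11Rik (-1.02) by log2 fold change, named here after their values were seen. All averaged under 2 CPM in both sets, and their number moved between 6 and 39 when single libraries were left out.

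For the genes that rose, the rule itself required a shift in each genotype. Its observed size varied between the groups. For Neurod1 the log2 difference of replicate 2 from the mean of replicates 1 and 3 was 4.81 in Kat6a_Homo_KO, 4.73 in Kat6a_Het_KO, 2.27 in Dlx5_Het_KO and 4.37 in WT. For Sox10 it was 1.28, 2.09, 1.14 and 1.73 in the same order. Of the 42 named genes that rose, 35 had their smallest difference in Dlx5_Het_KO, the group whose replicate 3 was high in these genes.

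In edgeR's quasi-likelihood F test of the 3 interaction terms, 0 of 14382 genes (0%) differed between genotypes in the size of the shift at a Benjamini-Hochberg adjusted p under 0.05. Unadjusted, 536 of the 14382 genes were under 0.05 in the same test. Among the 175 genes that rose the number was 40, a larger share. These genes were picked by their shift in the same 12 libraries and vary together, so the 40 are not independent. Their share describes the genes and tests nothing further. The smallest adjusted p of that test was 0.122, for Ppp1r17 and Emx2. DESeq2 called 5. Without Kat6a_Het_KO replicate 1 the count was 11, without Dlx5_Het_KO replicate 1 it was 10, without Kat6a_Het_KO replicate 3 it was 5, and with 4 residual degrees of freedom the test leaves room for differences it did not call.

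In the 12 libraries outside the selection the neuron genes could be tested against the markers. The level of the 2 markers, taken as the mean centred log2 CPM of Neurod1 and Nefl, lay between -1.75 and -1.57 over the 4 libraries of Dlx5_Homo_KO and between 1.21 and 2.60 over those of Kat6a_Het_Dlx5_Het_KO. In replicate 4 of the other groups it was -0.27 in Kat6a_Homo_KO, -1.23 in Kat6a_Het_KO, 1.39 in Dlx5_Het_KO and -1.49 in WT. Nefl was 10.6 to 28.9 CPM in Kat6a_Het_Dlx5_Het_KO, 1.77 to 3.18 CPM in Dlx5_Homo_KO and 1.60 CPM in WT replicate 4. Marker level and genotype are therefore largely confounded in these libraries.

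The slope of each gene on the marker level was tested with facility batch as a term. Of 14314 genes other than the markers, 177 (1.24%) had a positive and 9 (0.0629%) a negative slope at an adjusted p under 0.05 by edgeR's quasi-likelihood test. Of the 173 genes that rose, markers left out, 112 had a positive call, 0 a negative one, 30 were tested without a call and 31 were below the filter on low counts. The 112 are 63.3% of the 177 positive calls and 78.9% of the 142 genes tested, a subset that had to be expressed in these libraries.

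Several neuron genes had slopes near or above 1. Pou4f1 changed by 1.10 (SE 0.05, adjusted p = 8.04e-11, edgeR) log2 units per unit of marker level, with 0.322 to 13.0 CPM over the 12 libraries. Elavl3 changed by 1.09 (SE 0.05, adjusted p = 8.04e-11, edgeR), Sst by 1.43 (SE 0.08, adjusted p = 6.44e-10, edgeR) and Snap25 by 0.90 (SE 0.08, adjusted p = 5.27e-07, edgeR). Prdm12 changed by 0.84 (SE 0.10, adjusted p = 0.000151, edgeR).

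Of 12 glia genes tested in these libraries 4 had a positive call, and of 110 neuron list genes 49. The median slope was 0.22 over the glia list and 0.14 over the neuron lists. Lgi4 changed by 0.40 per unit (SE 0.05, adjusted p = 3.38e-05, edgeR), Fabp7 by 0.45 (SE 0.06, adjusted p = 0.000167, edgeR) and Foxd3 by 0.36 (SE 0.08, adjusted p = 0.0139, edgeR). Sox10 had a slope of 0.37 (SE 0.08, adjusted p = 0.0769, edgeR), with 3.26 to 23.2 CPM over the 12 libraries, and did not pass. Heyl passed, with 0.18 (SE 0.03, adjusted p = 0.000311, edgeR). Of the sensory receptor genes P2rx3 passed (0.26, adjusted p = 0.00408, edgeR), while Ntrk3 (0.25, adjusted p = 0.261, edgeR) did not. The adhesion gene Cntn1 (0.20, adjusted p = 0.200, edgeR) did not pass either.

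**Figure D4:**
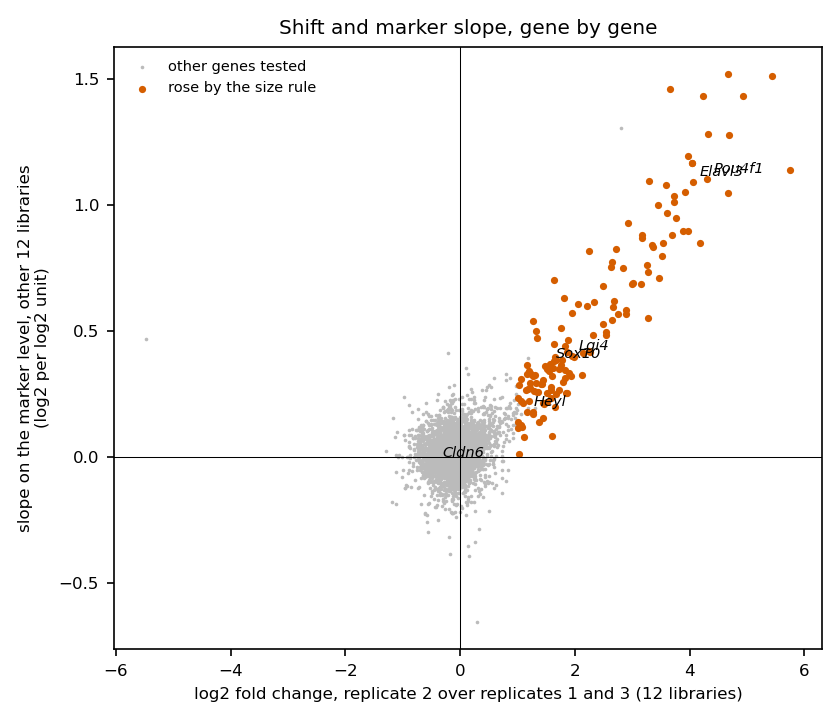
Each point is a gene; the x axis gives its log2 fold change between replicate 2 and replicates 1 and 3 and the y axis its slope on the marker level in the other 12 libraries, with genes that rose in orange. All 142 orange points lie above 0 on the y axis, with a median slope of 0.42, against 0.001 for all genes tested; the points are genes and not independent replicates.

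Of the 65 positive calls that had not met the size rule, 28 were higher in replicate 2 in all 4 groups and 12 were on the neuron or glia lists. St18, a zinc finger gene related to Myt1, missed only the direction rule, with a slope of 1.31 and a split log2 fold change of 2.80. Of the 9 negative calls none was lower in replicate 2 in all 4 groups. Negative slopes were small, from -0.07 to -0.05 per unit, and included Sall4 and Rpl7a.

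With genotype terms added, which leave 4 residual degrees of freedom, 3 genes other than the markers kept a call: Elavl3 (adjusted p = 0.0106, edgeR), Ppp1r17 (adjusted p = 0.0460, edgeR) and Dcx, a microtubule protein of migrating neurons (adjusted p = 0.0460, edgeR). In that fit 135 of the 142 genes had a positive slope, 95.1%, against 50.4% of all genes tested. In the 9 libraries of batch 1 alone the counts were 155 positive and 5 negative calls, with 101 positive among the genes that rose, and batch 2 with 3 libraries is too small for its own fit. Without Kat6a_Het_Dlx5_Het_KO replicate 4 there were 108 positive calls, 84 of them genes that rose.

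Since each genotype has 1 neuron-rich and 2 neuron-poor libraries, genotype can be tested beside a term for replicate 2. The labels give a replicate number and no record of the dissection, so what sets replicate 2 apart was not tested. Against WT, with replicate 2 as a term, 75 genes (0.521%) were called in libraries labelled Kat6a_Homo_KO, 17 higher and 58 lower, 2 (0.0139%) in Kat6a_Het_KO and 0 (0%) in Dlx5_Het_KO, by edgeR's quasi-likelihood test with Benjamini-Hochberg adjustment at 0.05. Without that term the counts were 35, 0 and 0, and all 35 were among the 75. The biological coefficient of variation over all genes was 0.0783 with the term and 0.0994 without.

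With replicates 1, 2 and 3 as separate blocks the counts were 167 in Kat6a_Homo_KO (44 higher, 123 lower, including 74 of the 75), 9 in Kat6a_Het_KO and 34 in Dlx5_Het_KO (26 higher, 8 lower). For Dlx5_Het_KO 1481 genes were under an unadjusted p of 0.05, and DESeq2 called 10 and limma voom 2. Single libraries moved the counts. For Kat6a_Het_KO it was 73 without its replicate 3, the library low in Xist, 3 without WT replicate 1, 4 without Dlx5_Het_KO replicate 3, and 1 without each of the other 9 libraries. For Dlx5_Het_KO it was 7 without its replicate 2, 2 without Kat6a_Homo_KO replicate 2, and 1 without Kat6a_Het_KO replicate 1 or Kat6a_Homo_KO replicate 3. For Kat6a_Homo_KO it was 40 without WT replicate 1, 41 without WT replicate 2, 47 without its own replicate 1 and 43 without its own replicate 2.

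Few genes of the neuron and glia lists were called between genotypes, and their share was near that of all genes tested, 0.521% in Kat6a_Homo_KO. Neuronal genes outside these lists, such as Nptx1, are not in this count. Of the 121 tested genes of the neuron lists and 13 of the glia list, 1 was called in Kat6a_Homo_KO, the sodium channel gene Scn3a, higher by 0.77 (SE 0.16, adjusted p = 0.0462, edgeR), and 0 in Kat6a_Het_KO and in Dlx5_Het_KO. Of the 175 genes that rose, 1 was called in Kat6a_Homo_KO, Soga3, lower by 1.27 on the log2 scale (SE 0.24, adjusted p = 0.0212, edgeR). Both calls were absent without the term for replicate 2, with adjusted p of 0.271 for Scn3a and 0.831 for Soga3 (edgeR). With replicates as separate blocks, 2 genes of the neuron or glia lists were called in Kat6a_Homo_KO, beside 167 of all genes tested.

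The genotype calls with the smallest adjusted p were of several kinds. The antisense transcript gene Dlx6os1, whose reads may not be told apart from those of overlapping genes, changed by -2.18 on the log2 scale (SE 0.08, adjusted p = 6.45e-11, edgeR) in libraries labelled Kat6a_Homo_KO over WT. Nptx1, a neuronal pentraxin, had -1.81 (SE 0.18, adjusted p = 8.53e-05, edgeR), and Skida1, Dlx5, Dlx3 and Dlx4os had -0.71, -0.83, -0.84 and -1.09. Higher were Mpo, the myeloid peroxidase (2.05, SE 0.20, adjusted p = 8.53e-05, edgeR), Postn, a mesenchymal matrix protein (0.72), Hbb-b1, a beta-globin (1.07), Bmi1, a Polycomb protein (0.39), Gm5946 (0.67) and Elf5 (1.99). In Kat6a_Het_KO, Hbb-b1 was higher by 1.19 (SE 0.14, adjusted p = 0.00191, edgeR), with 25.1 to 32.1 CPM in replicates 1 to 3 of that group and 9.24 to 14.2 CPM in those of WT. Replicate 4, outside that fit and from different facilities in the 2 groups, went the other way, with 8.07 CPM in Kat6a_Het_KO and 21.6 CPM in WT. Replicates 1 to 3 of Dlx5_Het_KO, where Hbb-b1 was not called, held 21.5 to 23.9 CPM of it. They too lay above replicates 1 to 3 of WT, so the difference from WT was not limited to the Kat6a groups. In Kat6a_Het_KO, Nr2f6 had -0.71 (SE 0.11, adjusted p = 0.0439, edgeR).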

How the data were processed

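PolyA RNA of 24 libraries was sequenced from TruSeq stranded libraries, per the labels' protocols. The authors deposited raw read counts per gene, made with featureCounts on mm10 after CASAVA 1.8.2, per the submitters' processing notes; no source used here gives the aligner or the strand setting. The counts were used as deposited, with library totals of 10.4 M to 28.2 M (1e+06 counts), which limit the precision of genes with few counts. Entries with no gene ID, 0.182% to 0.259% of counts, were left out, and 25275 of 26611 gene IDs matched a symbol.

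Genes were filtered with filterByExpr, scaled by TMM and fitted with edgeR 4.0.16 (robust quasi-likelihood) in R 4.3.3, with Benjamini-Hochberg adjustment at 0.05. The split was fitted with genotype as a block. In the other 12 libraries the slope on the mean log2 CPM (prior count 2) of Neurod1 and Nefl was fitted with facility batch. Genotypes were compared with WT with a term for replicate 2. limma 3.58.1 (voom) and DESeq2 1.42.0, other scalings, filters and left-out libraries were alternatives. The scripts were tested on simulated data without genes of low counts, so that test does not cover many of the genes that rose.

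Members and gene lists were chosen with earlier results of these data known. Named genes were the markers, up to 3 per list past the size rule with at least 1 CPM on average, the 2 most abundant of each list, up to 12 outside the lists without predicted genes, and up to 6 called genes per genotype and direction; other named genes were chosen after their values were seen. Drgx was matched under its older symbol Prrxl1. The design text calls the replicates biological. Same-numbered libraries deviated together in all 18 pairs of groups and numbers (r over genes of 0.176 to 0.612), and replicate 2 alone gave at least 0.505. Of the 12 libraries 9 matched best with their own number. This was taken as possible pairing, from the data and not from the labels. Replicate 2 was selected for a shift shared by the groups, so these r cannot settle whether libraries were paired. The main genotype fit has a term for replicate 2 only, and the replicate block allows for pairing. Some genes that the rule named are not reported here.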

Additional observations from a re-analysis of the deposited data

Results flagged for a closer look

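In groups of this size, chance sets a library apart in about 1 in 20 values. Of 276 values examined, 38 had a library farther from the rest of its set than the 95% limit of Dixon's test, and 28 of the 38 were Dlx5_Het_KO replicate 3, high among replicates 1 and 3. The values share 1 library and are not independent.

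In that library the factor genes stood at 4.41 CPM for Neurod1, 2.57 CPM for Nhlh1, 2.21 CPM for Myt1, 4.41 CPM for Pou4f1, 1.56 CPM for Tlx3 and 1.29 CPM for Tlx2. The structural and RNA-binding genes stood at 10.7 CPM for Nefl, 11.4 CPM for Stmn2, 5.15 CPM for Elavl3, 3.31 CPM for Srrm4 and 5.79 CPM for Elavl4. Vesicle, channel and receptor genes stood at 1.65 CPM for Scg3, 58.1 CPM for Vamp2, 4.41 CPM for Sst, 1.47 CPM for Scn9a, 27.9 CPM for Cacna2d1 and 1.29 CPM for Grm2. The glial gene Lgi4 stood at 4.14 CPM. Of the genes outside the lists, Ppp1r1c stood at 1.65 CPM, Xkr7 at 1.20 CPM, Thsd7b at 3.59 CPM, Gsg1l at 0.552 CPM, Cdhr1 at 1.47 CPM, Akap6 at 4.32 CPM and Disp2 at 0.735 CPM. Summed over lists, neuropeptides came to 5.98 CPM, ion channels and receptors to 115 CPM and guidance and adhesion genes to 340 CPM. Without this library 198 genes rose.

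WT replicate 1 was apart in its total of 28.2 M counts, in the summed neural tube progenitor list (259 CPM, high) and in Col3a1 (580 CPM, low). Kat6a_Het_KO replicate 3 was apart in Xist, at 7.54 CPM.

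Among the 4 libraries of replicate 2, Kat6a_Het_KO was high in Map1b (276 CPM). Kat6a_Homo_KO was high in the summed endothelial list (517 CPM) and in Elf5 (1.52 CPM), and low in Cplx2 (35.1 CPM), Hoxa2 (5.93 CPM) and Nptx1 (1.69 CPM). Elf5 and Nptx1 were also called between Kat6a_Homo_KO and WT.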

How the results depend on the processing

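No shift of a named gene that rose and no genotype value of a named gene changed direction. Among named genes that did not rise the sign could change. Cacna2d1, for example, went from -0.004 to 0.06 without Dlx5_Het_KO replicate 3. Of the shifts of named genes, 2447 values under alternatives stayed within the spread of the 4 groups and 31 moved beyond it; of the genotype values 275 kept their call and 19 lost it. Genes that rose numbered 170 to 200 with single libraries left out and 92 under a stricter filter, which tests fewer genes. Genes that fell numbered 6 to 39 with single libraries left out, 10 with library totals only, 46 with no filter, 1 with the stricter filter, 75 at 1.5-fold, 2 without overlap, and 26, 16, 12 and 15 without the Kat6a_Homo_KO, Kat6a_Het_KO, Dlx5_Het_KO and WT groups. The cause of these moves was not tested.

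Genotype calls for Kat6a_Homo_KO, Kat6a_Het_KO and Dlx5_Het_KO numbered 147, 14 and 14 with no filter, 114, 18 and 10 by DESeq2, and 167, 9 and 34 with the replicate block, which left the counts of genes that rose and fell at 175 and 6 and was not run for interaction and slope calls. With no term for replicate 2 they were 35, 0 and 0, with library totals only 1 in Kat6a_Het_KO, and by limma voom 2 in Dlx5_Het_KO. With single libraries left out they ranged over 40 to 106, 1 to 73 and 0 to 7. Interaction calls numbered 32 with no filter, 5 by DESeq2 and 0 to 11 with single libraries left out. With replicate 3 of both Kat6a_Het_KO and Dlx5_Het_KO left out, an alternative chosen after seeing the data, the counts were 125, 80 and 1, with 15 interaction calls.

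Slope calls numbered 110 positive, 5 negative and 64 among genes that rose with the stricter filter, and 3, 0 and 3 with genotype terms. Negative calls were 4 with library totals only, 28 by DESeq2, 19 with the axon cytoskeleton list as marker, 4 with no batch term and 5 in batch 1 alone, the last chosen after seeing the data. With single libraries left out the ranges were 108 to 192 positive, 1 to 10 negative and 84 to 123 among genes that rose. Of the 175 genes that rose, 106 averaged under 1 CPM in replicates 1 and 3, where depth limits the size of a fold.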

Other observations

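Emx2, a homeobox gene of the forebrain and urogenital tract that shared the smallest adjusted p of the interaction test, 0.122 by edgeR, stood at 2.63 CPM in Kat6a_Homo_KO, 23.6 CPM in Kat6a_Het_KO, 30.3 CPM in Dlx5_Het_KO and 27.2 CPM in WT of replicate 2. In replicates 1 and 3 Emx2 stood at 11.0 and 13.0 CPM in Kat6a_Homo_KO and at 21.1 to 28.7 CPM in the other groups. Replicate 4 of Kat6a_Homo_KO, outside that fit, held 7.22 CPM. The low level in Kat6a_Homo_KO was thus not limited to replicate 2. Emx2 was singled out after its values were seen, and the call did not pass.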
